A study of Homo sapiens with 12 samples.

Results

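The genes described here are asparagine synthetase and 9 plasma membrane amino acid transporter genes, in cultured cells of the human embryonic kidney line HEK293. They were chosen by gene symbol: ASNS, SLC7A1, SLC7A5, SLC7A11, SLC3A2, SLC1A4, SLC1A5, SLC38A1, SLC38A2 and SLC6A9. Of the 10 genes, 9 carry their symbol in both gene count tables, and SLC38A1 was found through its identifier, ENSG00000111371, because its row has no symbol. These are 10 of 37184 rows in the table of experiment 1 and 10 of 31910 rows in the table of experiment 2. All 10 passed the filter on low counts in both experiments. RNA was counted in 12 libraries, 3 in each of 4 groups. The inducible line, named HEK293_Flp In/TO △Fox2_Flag_mFox1, comes from a clone deficient in the splicing factor RBFOX2 and carries a tagged Rbfox1 transgene that is switched on by doxycycline through an inducible promoter. RBFOX1 and RBFOX2 are related RNA-binding proteins that regulate alternative exons. Experiment 1 compared uninduced cells of this line, without doxycycline, with induced cells. Experiment 2 compared parental HEK293 cells given doxycycline with induced cells of the inducible line. The dose stated for induction was 0.5 µg/ml, with harvest after 2 weeks, and parental cells were taken to have had the same. In experiment 1 the drug and the transgene cannot be told apart. In experiment 2 the transgene, the loss of RBFOX2 and the history of the clone cannot be told apart. The question of the study was the effect of RBFOX1 on circular RNA, and these genes belong to the gene-level readout of the same libraries.

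Amino acids cross the plasma membrane through carriers of the solute carrier (SLC) families, which differ in the amino acids they accept and in whether they exchange or accumulate them. When amino acids run short, the kinase GCN2 phosphorylates the initiation factor eIF2, translation of the transcription factor ATF4 increases, and ATF4 with C/EBP partners raises the transcription of ASNS and of many of these carriers. ASNS (ENSG00000070669) makes asparagine from aspartate and glutamine. SLC7A1 (ENSG00000139514) is the cationic amino acid transporter CAT1, which brings in arginine and lysine. SLC3A2 (ENSG00000168003) is the heavy chain CD98, which pairs with light chains such as SLC7A5 (ENSG00000103257), the LAT1 exchanger of large neutral amino acids, and SLC7A11 (ENSG00000151012), the cystine and glutamate exchanger xCT. SLC1A4 (ENSG00000115902) is the neutral exchanger ASCT1, which carries serine and alanine, and SLC1A5 (ENSG00000105281) is ASCT2, which carries glutamine. SLC38A1 and SLC38A2 (ENSG00000134294) are the sodium-coupled carriers SNAT1 and SNAT2, which accumulate glutamine and other small neutral amino acids. SLC6A9 (ENSG00000196517) is the glycine transporter GLYT1.

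The element that ATF4 and its C/EBP partners bind is shown because 6 of the genes hold it at a promoter. RefSeq promoter windows on GRCh38.p14, which run from 250 bases before to 50 bases after each start, were found for 9 of the 10 genes. SLC7A11 had no window. The motif searched was TGATGNAA on either strand, which reads TTNCATCA when it lies on the opposite strand. It was present in 1 window of each of the following genes, printed 5′ to 3′ on the strand of the gene with the motif in capitals.
ASNS: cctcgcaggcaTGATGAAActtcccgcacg
SLC7A1: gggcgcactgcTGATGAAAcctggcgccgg
SLC3A2: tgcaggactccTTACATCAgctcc
SLC1A4: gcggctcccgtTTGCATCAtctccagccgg
SLC1A5: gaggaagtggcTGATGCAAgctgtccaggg
SLC38A1: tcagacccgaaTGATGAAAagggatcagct
These stretches lie at chr7:97872458-97872487 on the minus strand for ASNS, chr13:29595663-29595692 on the minus strand for SLC7A1, and chr11:62881725-62881748 on the plus strand for SLC3A2. They lie at chr2:64989381-64989410 on the plus strand for SLC1A4, chr19:46784893-46784922 on the minus strand for SLC1A5, and chr12:46266502-46266531 on the minus strand for SLC38A1. The motif sat at positions -68 to -61 before the ASNS start and -97 to -90 before the SLC1A5 start. It lay across or next to the start in SLC1A4 (-7 to 1) and SLC38A1 (-4 to 4), and after the start in SLC7A1 (8 to 15) and SLC3A2 (38 to 45). The 250 bases before the ASNS start, chr7:97872409-97872658, give the setting of its motif.
ASNS upstream: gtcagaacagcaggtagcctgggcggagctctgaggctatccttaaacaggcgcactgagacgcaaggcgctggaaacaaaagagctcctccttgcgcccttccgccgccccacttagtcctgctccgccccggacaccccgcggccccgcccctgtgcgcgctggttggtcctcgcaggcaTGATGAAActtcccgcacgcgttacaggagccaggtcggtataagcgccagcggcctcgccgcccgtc
The motif was in 6 of the 16 windows of these genes (37.5%) and in 1270 of all 35116 windows (3.62%). Per gene, 6 of 9 genes with a window held it (66.7%), against 1217 of 27305 genes (4.46%). The windows of SLC7A5, SLC38A2 and SLC6A9 do not hold these letters. A match is a description of the letters and not a measured binding site. The genes and the motif were chosen with earlier results of these data known, so these shares are no test.

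Libraries held 34025315 to 55298749 gene counts in experiment 1, against 37663525 to 50261916 in experiment 2. A share of 21.7 to 24.1% of the counts of experiment 1 fell on MT-RNR2, a mitochondrial ribosomal RNA, against 0.0286 to 0.0638% in experiment 2, so levels set across the experiments carry this difference between libraries. Uninduced library 3 of experiment 1 stood apart from its group. It had the lowest depth, and its mean correlation with the other libraries of its group was 0.994, against 0.996 to 0.998 for every other library. Its counts differed from those of libraries 1 and 2 at a chi-square per degree of freedom of 40.6 and 35.5, against 6.62 between these. To a lesser degree, induced library 2 of experiment 1 differed from induced libraries 1 and 3, at 19.5 and 13.3 against 5.72 between these. RBFOX1 was at 3.76 ± 0.584 CPM (counts relative to the effective library size; mean ± SD, n = 3) in uninduced cells and 39.2 ± 0.393 CPM in induced cells of experiment 1. In experiment 2 it had 0 counts in the parental libraries and 40.1 ± 0.704 CPM in the induced ones. RBFOX2 was at 53.7 ± 3.89 CPM in uninduced cells, 53.7 ± 2.78 CPM in induced cells of experiment 1, 183 ± 0.0782 CPM in parental libraries and 50.8 ± 4.75 CPM in their induced counterparts. Gene counts do not show whether the RBFOX2 reads of the deficient line come from an intact transcript. Summed HEK293 markers lay between 1036 and 1402 CPM in every library, with 7 of the 9 fixed markers listed. Most of this sum was VIM, with group means of 779 to 913 CPM, while PAX2 had group means of 1.10 to 2.22 CPM. Summed markers of other cell types stayed at or under 4.05 CPM for haematopoietic, 7.17 for fibroblast, 0.258 for hepatocyte and 0.110 for endothelial genes. The neurofilament gene NEFM, fixed as a HEK293 marker, was at 36.0 CPM in parental cells and at no more than 0.504 CPM on average in the other 3 groups.

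**Figure D1:**
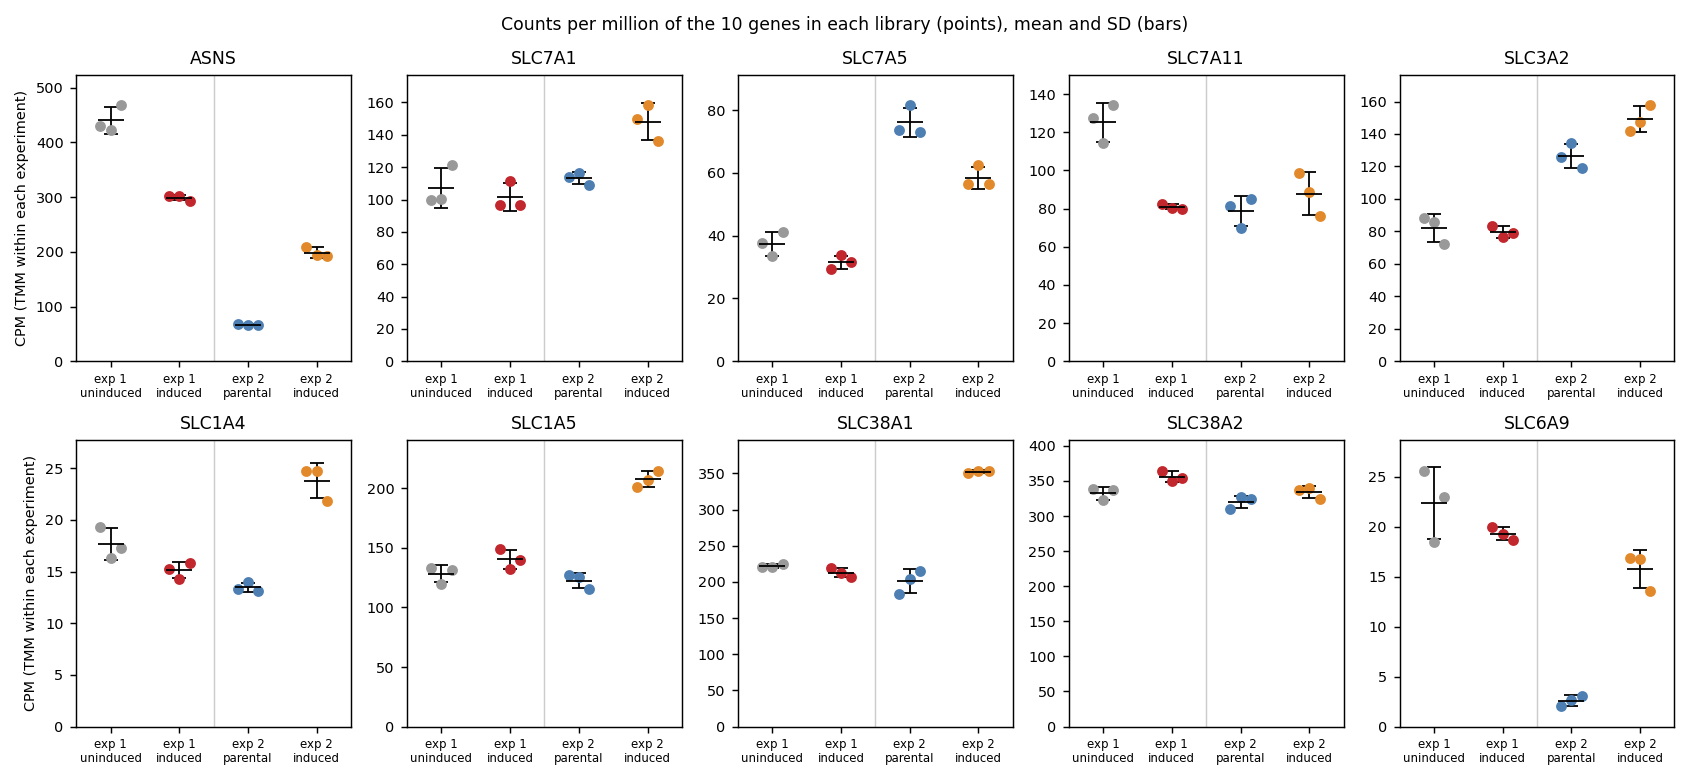
Level of each of the 10 genes in CPM (y axis, linear from 0, scaled within its experiment) in the 4 groups (x axis), with 1 point per library and bars for the mean and SD of 3 libraries. ASNS lies at 423 to 468 CPM in uninduced cells and near 67.0 CPM in parental cells, and SLC6A9 lies at 2.01 to 3.10 CPM in parental cells.

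In experiment 1, ASNS and the cystine transporter gene SLC7A11 fell in induced cells, and no gene of the set was called higher. ASNS was at 429.8, 423 and 468 CPM in uninduced libraries 1, 2 and 3 and at 301, 302 and 294 CPM in the induced ones. Every induced library lay below every uninduced one. The means were 440.1 ± 24.2 and 299 ± 4.56 CPM (SD, n = 3), a log2 change of -0.56 ± 0.060 (SE; adjusted p = 0.000776, quasi-likelihood F-test of edgeR) or 1.47-fold lower. Bulk counts do not tell a change in every cell from a change in the share of cells that express a gene. SLC7A11 was at 127, 114 and 134 CPM in uninduced libraries and at 82.6, 80.4 and 80.0 CPM in induced ones. These groups were also apart, and the log2 fold change was -0.63 ± 0.065 (adjusted p = 0.000670). Of the 10 genes 0 were called higher, 2 lower and 8 not at all, by edgeR and by DESeq2 alike. At an unadjusted p under 0.05, which 34.9% of all genes passed in either direction, 0 were higher and 4 lower. Of all 18978 genes tested 20.9% were called, 10.5% as higher and 10.4% as lower, so the share of the set is near that of all genes. Without uninduced library 3 the same 2 genes were called, ASNS at -0.51 (adjusted p = 2.72e-05) and SLC7A11 at -0.57 (adjusted p = 1.16e-05). The median log2 fold change was -0.14 over the 10 genes and 0.0026 over all genes tested.

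The other 8 genes moved little in experiment 1. SLC1A4 was at 19.3, 16.3 and 17.2 CPM in uninduced libraries and at 15.3, 14.3 and 15.8 CPM in induced ones. Its groups did not overlap, yet the log2 fold change of -0.22 ± 0.082 was not called (adjusted p = 0.0892). SLC7A5 had a log2 change of -0.25 ± 0.084 (adjusted p = 0.0667) and SLC6A9 one of -0.21 ± 0.11 (adjusted p = 0.203), both with overlapping groups. Without uninduced library 2 both were called, SLC7A5 at -0.32 (adjusted p = 0.0384) and SLC6A9 at -0.33 (adjusted p = 0.0398). With no filter on low counts SLC7A5 was called as well (adjusted p = 0.0165). The glutamine carriers had small values in either direction: 0.13 ± 0.065 for SLC1A5, -0.062 ± 0.052 for SLC38A1 and 0.098 ± 0.055 for SLC38A2 on the log2 scale. The groups of SLC38A1 and SLC38A2 did not overlap, and 5 of the 10 genes had such groups, against 40.1% of all genes tested. SLC7A1 (-0.077 ± 0.089) and SLC3A2 (-0.044 ± 0.079) had the values nearest to 0 beside SLC38A1, and their sign turned when 1 library was left out. SLC7A1 stood at 0.024 without uninduced library 3, and SLC3A2 at 0.013 without uninduced library 1.

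In experiment 2, ASNS and 6 transporter genes were higher in induced cells of the inducible line than in parental cells, and SLC7A5 was lower. ASNS was at 67.1, 66.8 and 67.1 CPM in parental libraries 1, 2 and 3 and at 209.6, 194 and 192 CPM in the induced ones. The groups were far apart, with a log2 change of 1.57 ± 0.050 (adjusted p = 1.05e-16) or 2.96-fold. The largest change of the set was in the glycine transporter gene SLC6A9, at 2.01, 2.62 and 3.10 CPM in parental libraries and 16.9, 16.8 and 13.6 CPM in induced ones. These rest on 82, 119 and 156 reads against 635, 636 and 510 reads. The log2 fold change was 2.60 ± 0.13 (adjusted p = 2.41e-13), or 6.05-fold. Of the 10 genes 7 were called higher, 1 lower and 2 not at all. Of all 17945 genes tested 65% were called, 32.1% as higher and 32.9% as lower. The median log2 fold change was 0.57 over the 10 genes and -0.0090 over all genes tested. Groups did not overlap for 8 of the 10 genes, against 68% of all genes tested.

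The exchanger genes SLC1A4 and SLC1A5 and the sodium-coupled carrier gene SLC38A1 rose by 0.76 to 0.82 on the log2 scale. SLC1A4 was at 13.3, 14 and 13.1 CPM in parental libraries and 24.7, 24.8 and 21.8 CPM in induced ones, a log2 change of 0.82 ± 0.077 (adjusted p = 7.10e-09). SLC1A5 was at 127, 125 and 116 CPM against 202, 207 and 215 CPM, a log2 change of 0.76 ± 0.050 (adjusted p = 2.05e-11). SLC38A1 was at 183, 205 and 215 CPM against 349.9, 353 and 354 CPM, a log2 change of 0.81 ± 0.054 (adjusted p = 2.58e-11). In each of these 3 genes every induced library lay above every parental one. The related carrier SLC38A2, which shares substrates with SLC38A1, was at 311, 327 and 324 CPM against 338, 340.2 and 325 CPM. Its groups overlapped and its log2 fold change of 0.061 ± 0.046 was not called (adjusted p = 0.250).

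The genes of the CD98 complexes went different ways in experiment 2. The heavy chain gene SLC3A2 was at 126, 134 and 119 CPM in parental libraries and 142, 148 and 158 CPM in induced ones. This small rise, with no overlap, had a log2 change of 0.24 ± 0.054 (adjusted p = 0.000571). The light chain gene SLC7A5 was at 73.7, 81.5 and 73.1 CPM against 56.5, 62.6 and 56.4 CPM. It fell by 0.38 ± 0.058 on the log2 scale (adjusted p = 7.16e-06), with no overlap. The light chain gene SLC7A11 was at 81.2, 69.9 and 85.1 CPM against 98.5, 88.9 and 76.0 CPM. These groups overlapped, and the log2 fold change of 0.16 ± 0.077 was not called (adjusted p = 0.0792). SLC7A11 was called with no filter on low counts (adjusted p = 0.0278), without parental library 3 (0.0309) and without induced library 3 (0.00387). The arginine and lysine transporter gene SLC7A1 rose from 114, 117 and 109 CPM to 150.1, 158 and 136 CPM, a log2 change of 0.39 ± 0.055 (adjusted p = 2.38e-06).

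**Figure D2:**
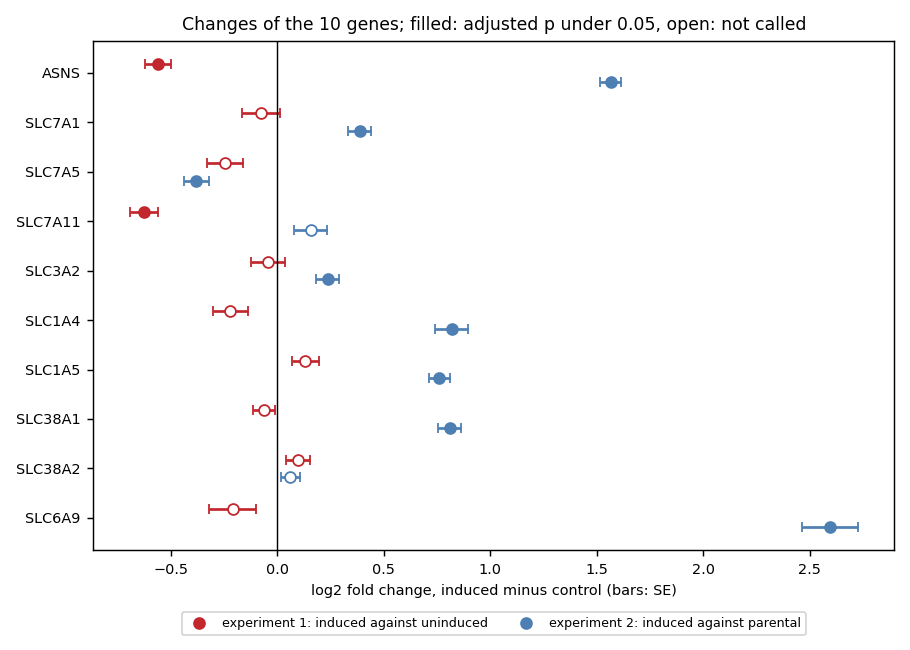
Log2 fold change of induced against control cells (x axis) for each gene (y axis), with bars for the SE, in experiment 1 (red) and experiment 2 (blue). Filled points passed an adjusted p of 0.05. ASNS is at -0.56 in experiment 1 and 1.57 in experiment 2, and SLC7A5 lies below 0 in both.

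The difference between induced and control cells was not the same in the experiments for 8 of the 10 genes. The contrast was induced minus parental cells in experiment 2, less induced minus uninduced cells in experiment 1. It was tested in 1 model over all 12 libraries, in which 52.2% of 19942 genes were called, 25.9% as higher and 26.3% as lower. It was 2.13 for ASNS (adjusted p = 2.55e-13) and 2.81 for SLC6A9 (adjusted p = 5.68e-10) on the log2 scale. It was 1.04 for SLC1A4, 0.87 for SLC38A1, 0.78 for SLC7A11, 0.63 for SLC1A5, 0.46 for SLC7A1 and 0.28 for SLC3A2. The adjusted p of these 6 ran from 6.84e-08 for SLC38A1 to 0.0278 for SLC3A2. The call of SLC3A2 was lost when any of 8 single libraries was left out (adjusted p = 0.0546 to 0.118). SLC7A5 (-0.13, adjusted p = 0.311) and SLC38A2 (-0.037, adjusted p = 0.705) were not called. No gene of the set was called lower by edgeR or DESeq2. At an unadjusted p under 0.05, which 56.8% of all genes passed in either direction, 0 were lower. The median of the contrast was 0.71 over the 10 genes and -0.0027 over all genes tested. By label the induced cells of both experiments share line and treatment, and the control cells differ. The induced cells also differed between the experiments, with 68.9% of all genes called. Whether the contrast comes from the control cells or from other differences between the experiments was not tested.

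On a scale shared by the 12 libraries, ASNS stood highest in uninduced cells at 472 ± 27.3 CPM, followed by induced cells of experiment 1 at 320.3 ± 5.42, induced cells of experiment 2 at 185 ± 8.63 and parental cells at 62.5 ± 0.293 CPM (SD, n = 3). No neighbours in that order overlapped. SLC6A9 had the same order, with 24.0 ± 3.87, 20.7 ± 0.825, 14.7 ± 1.66 and 2.40 ± 0.497 CPM, and only the uninduced and induced libraries of experiment 1 overlapped. Both genes were thus lowest in the parental line, and so were the means of SLC7A11, SLC38A1, SLC1A5, SLC1A4, SLC7A1 and SLC38A2. Parental cells lack the transgene, the labelled RBFOX2 deficiency and the history of the clone, which cannot be told apart here. SLC7A11 stood at 134 ± 11.1 CPM in uninduced cells, above the other groups at 86.8 ± 1.99 (induced, experiment 1), 81.8 ± 10.1 (induced, experiment 2) and 73.5 ± 7.26 CPM (parental), whose neighbours overlapped.

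SLC38A1 and SLC1A5 were highest in induced cells of experiment 2, at 328.5 ± 3.55 and 194 ± 7.33 CPM, and lowest in parental cells, at 187 ± 14.8 and 114 ± 6.21 CPM. The groups of experiment 1 lay between these and overlapped each other for both genes, at 238 ± 3.95 and 228 ± 7.79 CPM for SLC38A1 and 138 ± 7.91 and 151 ± 9.66 CPM for SLC1A5 in uninduced and induced cells. For SLC38A1 this overlap depends on the scale, since its groups of experiment 1 were apart when scaled within the experiment. SLC1A4 ran from 22.2 ± 1.45 CPM in induced cells of experiment 2 over 18.9 ± 1.64 in uninduced and 16.2 ± 0.898 in induced cells of experiment 1 to 12.6 ± 0.450 CPM in parental cells. The upper neighbours in that order overlapped. The CD98 genes were ordered differently: SLC7A5 was highest in parental cells at 71.0 ± 4.48 CPM, then 54.5 ± 3.07 in induced cells of experiment 2, 40.1 ± 4.20 in uninduced and 33.8 ± 2.06 CPM in induced cells of experiment 1. The lower neighbours overlapped. SLC3A2 was at 139 ± 8.26 and 118 ± 7.28 CPM in induced and parental cells of experiment 2 and at 88.1 ± 9.27 and 85.4 ± 4.35 CPM, with overlap, in uninduced and induced cells of experiment 1. SLC7A1 was highest in induced cells of experiment 2 at 138 ± 9.70 CPM, followed by uninduced cells at 115 ± 13.8, induced cells of experiment 1 at 109 ± 8.41 and parental cells at 106 ± 3.88 CPM. All neighbours in that order overlapped. SLC38A2 ran from 382 ± 11 CPM in induced and 357 ± 10.1 in uninduced cells of experiment 1 to 312 ± 5.75 in induced and 299 ± 7.26 CPM in parental cells of experiment 2, with no overlap of neighbours. The groups of experiment 2 were apart on this scale by a narrow margin (305.1 against 304.9 CPM) and overlapped when scaled within their experiment.

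Induced cells of experiments 1 and 2, which share line and treatment by label, also differed from each other. In this contrast 68.9% of 19942 genes were called, 34.8% as higher and 34.2% as lower in experiment 2, and of the 10 genes 6 were called higher, 3 lower and 1 not. SLC3A2 (log2 0.70 ± 0.073) and SLC7A5 (0.69 ± 0.076) stood furthest above experiment 1 and ASNS furthest below it (-0.79 ± 0.055). SLC6A9 (-0.50 ± 0.12) and SLC38A2 (-0.29 ± 0.051) were the others called lower. SLC7A11 was at -0.086 ± 0.085 and was not called (adjusted p = 0.379). Scaling by library totals alone moved the median of all genes by 0.20 in this contrast, and the share of calls that were higher went from 50.4% to 63.6%. Under that scaling SLC7A11 turned to 0.12 and SLC38A2 was at -0.087 (adjusted p = 0.158), while the other 8 genes kept their direction and their call.

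Reads of ASNS can be split with the pseudogene ASNSP1, whose sequence resembles it, so both were followed. ASNSP1 fell in experiment 1, from 19.4, 18.6 and 23.0 CPM to 11, 13.3 and 10.6 CPM, a log2 change of -0.81 ± 0.11 (adjusted p = 0.00193). It rose in experiment 2, from 0.565, 0.617 and 0.476 CPM to 7.77, 5.64 and 5.30 CPM, a log2 change of 3.49 ± 0.20 (adjusted p = 2.20e-12). Its counts were 4.61 ± 0.272% of the ASNS counts in uninduced and 3.89 ± 0.440% in induced libraries of experiment 1. The same share was 0.825 ± 0.108% in parental cells and 3.13 ± 0.508% in induced cells of experiment 2 (SD, n = 3). The share was therefore lowest in the parental cells, and no parental library overlapped another group. With the reads of both rows summed, the log2 fold change of ASNS was -0.57 in experiment 1 and 1.60 in experiment 2. How the authors' counting divided reads between the gene and the pseudogene is not given in the sources used here.

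**Figure D3:**
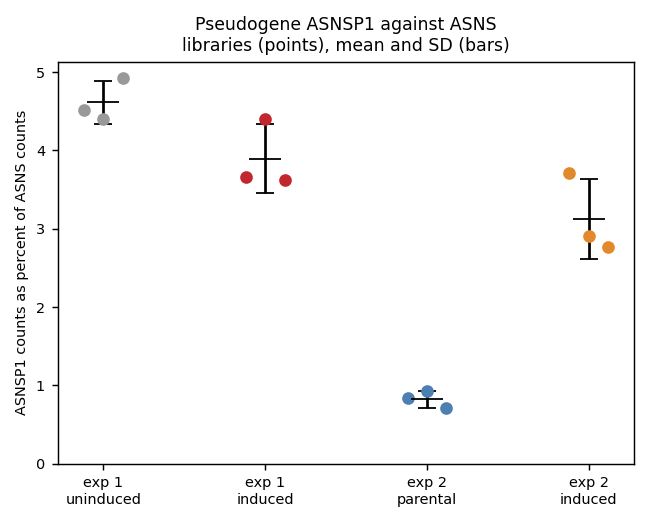
Counts of the pseudogene ASNSP1 as a percentage of ASNS counts (y axis, from 0) in the 4 groups (x axis), with 1 point per library and bars for the mean and SD of 3 libraries. Parental cells lie at 0.825% on average and the other groups between 3.13 and 4.61%.

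Some other copies and overlapping genes were followed in the same way. The pseudogene SLC7A5P1 was at 7.47 ± 2.22% of the SLC7A5 counts in uninduced and 9.71 ± 1.81% in induced libraries of experiment 1. It was at 3.40 ± 0.389% in parental and 3.12 ± 0.635% in induced libraries of experiment 2. Its log2 fold change was 0.14 ± 0.16 in experiment 1 (not called) and -0.51 ± 0.18 in experiment 2 (adjusted p = 0.0188), a call lost without parental library 1, induced library 2 or induced library 3 (adjusted p = 0.0592 to 0.0769). The antisense genes SLC7A11-AS1 and SLC38A2-AS1 had 0 to 4 reads per library and were not tested. SNHG1, a small nucleolar RNA host gene beside SLC3A2, fell in both experiments (log2 -0.39 and -0.51). SLC6A9 overlaps CCDC24 in the RefSeq annotation, ASNS overlaps CZ1P-ASNS, RPS3AP29 and SNRPCP9, and SLC7A5 overlaps SLC7A5-AS1, among others. No strand setting is given for the counting, and of these overlapping genes only CCDC24 was followed. CCDC24, looked at after its values were seen, went from 5.40 ± 0.312 to 3.02 ± 0.161 CPM in experiment 2 (log2 -0.84 ± 0.13, adjusted p = 6.96e-06), the opposite direction to SLC6A9. In experiment 1 it had the same direction as SLC6A9, at log2 -0.39 ± 0.18 with groups that did not overlap. That change was not called (adjusted p = 0.162).

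Among 17084 genes tested in both experiments, the profiles nearest to ASNS over the 12 libraries were those of GPAT3, SAMD5, NHS, ENSG00000260920 and GK. Nearness is the Euclidean distance of log2 CPM after each experiment's mean is taken off, and it ran from 0.214 for GPAT3, a glycerol phosphate acyltransferase, to 0.310 for GK, the glycerol kinase. GPAT3 had log2 fold changes of -0.46 and 1.57 in experiments 1 and 2. No other gene of the set was among these: the nearest was SLC1A4 at rank 867 (distance 1.05), then SLC38A1 at rank 1091. The 3 profiles nearest to SLC7A11 were ZFAND1, HLF and PCK2, the mitochondrial phosphoenolpyruvate carboxykinase, at distances of 0.305 to 0.328. PCK2 had log2 fold changes of -0.74 in experiment 1 and 0.23 in experiment 2.

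The mRNA of ATF4 itself, which is controlled mainly at translation, was at 581 ± 73.8 and 563 ± 38.3 CPM in uninduced and induced cells of experiment 1, a log2 change of -0.046 ± 0.097 that was not called (adjusted p = 0.773). Its sign turned without uninduced library 1 (0.025) and without induced library 2 (0.0021). In experiment 2 it rose from 516 ± 20.3 to 659.8 ± 18.5 CPM (log2 0.36 ± 0.047, adjusted p = 1.16e-06). The difference between the experiments was 0.40 (adjusted p = 0.00549). Among 19 kinases and transcription factors of the amino acid and stress response, 2 rose and 9 fell in experiment 1 (10.5% and 10.4% of all genes), with a median of -0.57. In experiment 2, 13 rose and 4 fell (32.1% and 32.9% of all genes), with a median of 0.46. CEBPG, which codes for a C/EBP partner of ATF4, fell from 428.5 ± 24.2 to 265 ± 3.07 CPM (log2 -0.69) in experiment 1 and rose from 69.0 ± 4.87 to 281 ± 11.5 CPM (log2 2.03) in experiment 2. DDIT3, the stress factor CHOP, fell by 1.06 and rose by 1.21 on the log2 scale. NUPR1, a small stress-induced nuclear protein gene, rose from 0.211 ± 0.120 to 30.3 ± 1.65 CPM in experiment 2 (log2 7.09, from 4, 9 and 17 reads in the parental libraries). ATF3 fell in both, by 1.37 and by 0.69. MYC, whose protein activates SLC7A5 and SLC1A5 in many cells, rose by 0.39 (adjusted p = 0.00429) in experiment 1 and fell by 0.18 (adjusted p = 0.00176) in experiment 2.

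Of the genes with the motif at a promoter, 318 were tested in experiment 1, and 8.49% were called higher and 18.2% lower. Of 10993 genes with a promoter window without it, 12.8% were called higher and 11.9% lower. In experiment 2, 45.6% of 320 genes with the motif were called higher and 28.8% lower, against 35.5% and 36.1% of 11065 genes without it. These shares describe the genes and were not tested. Within the set, all 6 genes with a match were called higher in experiment 2, and of the 3 genes with a window and no match SLC6A9 was called higher, SLC7A5 lower and SLC38A2 not at all. In experiment 1, 0 of the 6 genes with a match were called higher and 1, ASNS, lower. SLC7A11, which had no window, was called lower in experiment 1 and not called in experiment 2. The genes and the motif were chosen with earlier results of these data known, so these counts within the set are no test.

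**Figure D4:**
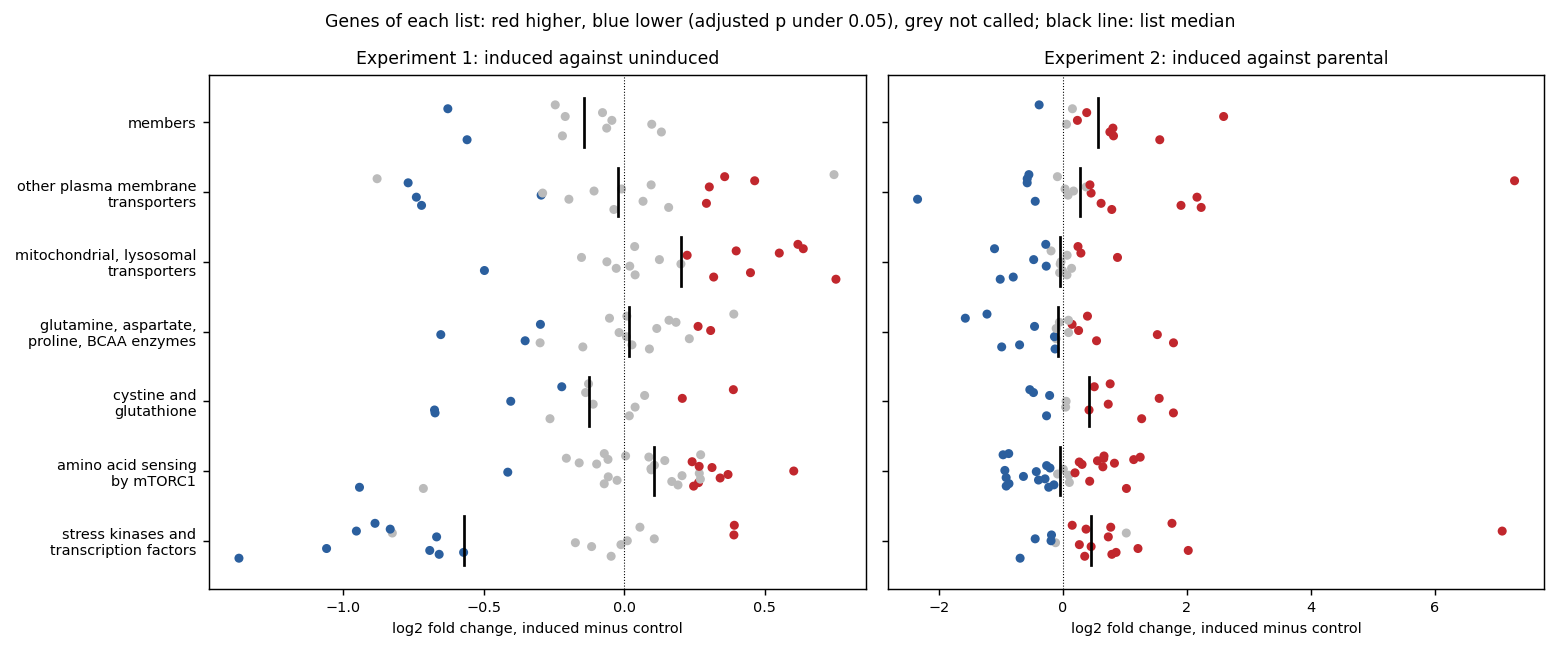
Log2 fold change of each tested gene (points) in the 10 genes and 6 related lists (y axis), coloured red where called higher, blue where lower and grey where not called, with a black line at the list median, in experiment 1 and experiment 2 (separate panels, whose x axes differ in range). The list of stress kinases and transcription factors has a median of -0.57 in experiment 1 and 0.46 in experiment 2.

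Other plasma membrane amino acid transporters moved in both directions. Of 30 listed genes 18 were tested in each experiment, 4 rose and 4 fell in experiment 1 (10.5% and 10.4% of all genes), with a median of -0.023. In experiment 2, 8 rose and 5 fell (32.1% and 32.9% of all genes), with a median of 0.28, and the 13 of 18 called are near the 65% of all genes. Leaving out induced library 1 brought the calls of experiment 1 to 2 higher and 2 lower, uninduced library 1 to 3 and 2, uninduced library 2 to 2 and 3, and induced library 3 to 4 and 2. Calls over all genes of experiment 1 moved as well, to between 1581 and 5231 with 1 library left out, against 3971 with all. The same holds beside such counts of the lists below. SLC7A3, the cationic transporter CAT3, fell from 12.9 ± 1.84 to 7.57 ± 0.336 CPM in experiment 1 (log2 -0.77), and SLC1A2, a glial glutamate transporter gene, fell by 0.72. SLC7A6, a CD98 light chain for cationic amino acids, rose from 46.8 ± 1.33 to 64.6 ± 1.29 CPM in experiment 1 (log2 0.46). SLC7A8, the LAT2 light chain, rose by 0.36 (adjusted p = 0.0289), a call lost in 5 alternatives (adjusted p = 0.0758 to 0.125). In experiment 2, SLC1A1, a glutamate and cysteine transporter gene, rose from 2.83 ± 0.0513 to 13.3 ± 0.754 CPM (log2 2.23), and SLC16A10, a carrier of aromatic amino acids, rose by 0.79. SLC38A3, the glutamine carrier SNAT3, fell from 5.30 ± 0.321 to 1.04 ± 0.170 CPM (log2 -2.34), and SLC7A2, the cationic transporter CAT2, fell by 0.57. The change in SLC7A6 also differed between the experiments (-1.04, adjusted p = 2.30e-09).

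Of 17 tested carriers of the mitochondrion and lysosome, 8 rose and 1 fell in experiment 1 (10.5% and 10.4% of all genes). In experiment 2, 3 rose and 6 fell (32.1% and 32.9% of all genes), and 9 of 17 called is below the 65% of all genes. Without induced library 1 or induced library 3 the rises of experiment 1 numbered 5. CTNS, the lysosomal cystine exporter, rose by 0.75 in experiment 1, from 2.51 ± 0.384 to 4.26 ± 0.293 CPM, and fell by 1.01 in experiment 2, from 25.5 ± 2.08 to 12.7 ± 1.23 CPM. SLC38A7, a lysosomal glutamine carrier, rose by 0.64 and fell by 1.10 on the log2 scale. SFXN3, a mitochondrial serine carrier of the sideroflexin family, fell by 0.50 in experiment 1. SLC25A29, a mitochondrial carrier of basic amino acids, rose by 0.88 in experiment 2, and SLC25A44, a mitochondrial carrier of branched-chain amino acids, rose by 0.29.

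Enzymes that use or make the transported amino acids were mixed. Of 18 tested enzymes of glutamine, glutamate, aspartate, proline and branched-chain metabolism, 2 rose and 3 fell in experiment 1 and 6 rose and 7 fell in experiment 2. These 5 and 13 calls are near the shares of all genes, 20.9% and 65%. The falls of experiment 1 numbered 5 without uninduced library 3 and 1 without induced library 3, and the rises 1 without induced library 1. GLS2, a glutaminase, fell by 0.65 in experiment 1 and rose by 1.53 in experiment 2. GLUL, glutamine synthetase, rose by 0.31 in experiment 1 and by 0.26 in experiment 2. ASS1, which joins citrulline and aspartate in arginine synthesis, rose from 15.9 ± 0.724 to 54.8 ± 1.97 CPM (log2 1.79) in experiment 2. The proline synthesis enzymes PYCR1 and PYCR3 fell in experiment 2, PYCR1 from 93.0 ± 4.56 to 31.3 ± 1.62 CPM (log2 -1.57) and PYCR3 by 1.22. BCAT1, the cytosolic branched-chain aminotransferase, fell by 0.35 and GOT2, the mitochondrial aspartate aminotransferase, rose by 0.26 in experiment 1, each called under all alternatives but 1 (adjusted p = 0.0612 and 0.0505 there). Both went the other way in experiment 2, where BCAT1 rose by 0.55 and GOT2 fell by 0.45.

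Among 13 cystine and glutathione genes, 2 rose and 4 fell in experiment 1 (10.5% and 10.4% of all genes), and 7 rose and 4 fell in experiment 2 (32.1% and 32.9% of all genes). The calls of experiment 1 were 0 higher and 1 lower without uninduced library 2, induced library 1 or induced library 3. They were 1 and 2 without uninduced library 1, 2 and 1 without induced library 2, and 2 and 6 without uninduced library 3. CTH, the cystathionine lyase that makes cysteine, fell from 39.5 ± 3.77 to 24.7 ± 1.29 CPM (log2 -0.67) in experiment 1 and rose by 0.42 in experiment 2. CHAC1, which degrades glutathione, had a log2 change of -0.67 in experiment 1 (adjusted p = 0.020, lost in 5 alternatives) and rose by 1.79 in experiment 2. GPX4, the glutathione peroxidase of membrane lipids, rose from 191 ± 14.5 to 562 ± 9.56 CPM (log2 1.56) in experiment 2, and its smaller rise of 0.21 in experiment 1 was lost in 6 alternatives (adjusted p = 0.0585 to 0.126). KEAP1, which holds the transcription factor NRF2 in check, rose by 0.39 in experiment 1, a call lost in 3 alternatives, and fell by 0.53 in experiment 2. GSS, glutathione synthetase, fell by 0.47 in experiment 2.

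Of the genes through which mTORC1 senses amino acids, 8 of 31 rose and 2 fell in experiment 1 (10.5% and 10.4% of all genes), and 12 of 30 rose and 14 fell in experiment 2 (32.1% and 32.9% of all genes). MTOR, the kinase itself, rose from 102 ± 3.82 to 154.7 ± 3.34 CPM (log2 0.60) in experiment 1 and fell by 0.43 in experiment 2. DDIT4, an inhibitor of mTORC1, fell from 128 ± 13.5 to 66.6 ± 5.73 CPM (log2 -0.94) in experiment 1, and MIOS, of the GATOR2 complex, fell by 0.41. The changes of DDIT4 and MIOS differed between the experiments, at 1.97 and 0.61 for experiment 2 minus experiment 1 (12-library model of edgeR, adjusted p = 1.34e-09 and 1.03e-06). LAMTOR4, of the Ragulator complex, rose by 0.37 in experiment 1, a call lost in 3 alternatives. SESN3 and SESN1, of the sestrin family, rose by 1.25 and 1.15 in experiment 2. WDR24 of GATOR2 and NPRL2 of GATOR1 fell by 0.96 and 0.93 there. The rises of experiment 1 numbered 1 without uninduced library 2 or induced library 3 and 3 without induced library 1. Calls over all genes also fell in these runs, to as few as 1581 against 3971 with all libraries. For the stress kinases and transcription factors the counts of experiment 1 stayed at 2 and 9 whichever library was left out.

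Back-splice reads, which mark circular RNA, were few for these genes. The tables list 26 circRNAs hosted by them in experiment 1 and 15 in experiment 2, of which 4 and 3 had enough reads to test, and 0 were called by edgeR. None of them had an unadjusted p under 0.05, and the share called among all circRNAs was 0% of 1701 in experiment 1 (4.53% at an unadjusted p under 0.05) and 1.68% of 2381 in experiment 2 (11.9% unadjusted). SLC38A1 hosted all 4 tested in experiment 1. Its most frequent circle spans 4 exons at chr12:46622936-46637097 (GRCh37, minus strand) and had 35 reads in uninduced and 49 in induced cells (log2 0.37 ± 0.38, adjusted p = 0.965). In experiment 2 it had 22 reads in parental and 26 in induced cells (log2 0.47 ± 0.67, adjusted p = 0.887), beside the rise of 0.81 in the SLC38A1 gene count. The 3-exon circle of SLC7A1 at chr13:30104675-30110339 had 13 reads in parental and 9 in induced cells of experiment 2 (log2 -0.22 ± 1.0, adjusted p = 0.971). Changes of this size were not detectable at this depth. SLC7A5 and SLC6A9 hosted 0 listed circRNAs in either table.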

How the data were processed

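RNA of the 12 samples was read in pairs on a NextSeq500 after TruSeq library preparation, per the labels' protocols. The submitters' processing notes name STAR 2.5.2b and GRCh37 (hg19), without a stated role. The authors deposited whole-number counts per gene and per circRNA for each experiment, without normalization. The counting tool, strand setting and circRNA caller are not given in the sources used here. Symbols came from the tables (23011 and 20675 rows) or a gene identifier table (11336 and 9029 rows), and 2837 and 2206 rows stayed without one.

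Each whole table was passed through filterByExpr (at least 10 counts, total 15) and TMM scaling, and edgeR 4.0.16 (R 4.3.3) gave two-sided quasi-likelihood F-tests. A gene was called when its Benjamini-Hochberg adjusted p over all genes was under 0.05, and SE was derived from F. CPM uses the TMM library size of its experiment. The 12-library model holds 4 group means over genes in both tables. A circRNA needed 10 reads and a read in 3 libraries. The scripts were tested on simulated data. Alternatives were DESeq2 1.42.0, RLE and total-count scaling, no filter, a replicate block and leaving out each library. Further ones, without mitochondrial genome-encoded genes and with ASNS and ASNSP1 summed, were chosen after seeing the data.

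The members, lists and motif were chosen with earlier results of these data known. Named list genes are the up to 2 called highest and 2 lowest per list and experiment that reach a mean log2 CPM of 1, beside ATF4, MYC, RBFOX1, RBFOX2, copies of members, and the 5 and 3 profiles nearest to ASNS and SLC7A11. No gene lengths were used, so levels are not compared between genes. The labels do not say that replicates were separate cultures, so the p-values speak of the spread among the sampled libraries, possibly technical spread alone.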

Additional observations from a re-analysis of the deposited data

Results flagged for a closer look

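The difference between induced and control cells was not the same in the experiments for 8 of the 10 genes. Control cells were uninduced cells of the line in experiment 1 and parental cells given doxycycline in experiment 2. The contrast was that of the 12-library model of edgeR (experiment 2 minus experiment 1, log2 scale). The values were 2.13 for ASNS (adjusted p = 2.55e-13), 2.81 for SLC6A9 (5.68e-10), 1.04 for SLC1A4 (3.50e-07) and 0.87 for SLC38A1 (6.84e-08). They were 0.78 for SLC7A11 (2.29e-05), 0.63 for SLC1A5 (8.28e-06), 0.46 for SLC7A1 (0.00155) and 0.28 for SLC3A2 (0.0278). The call of SLC3A2 was lost in some alternatives, where its adjusted p reached 0.118. Over all 19942 genes tested in this contrast 52.2% were called, 25.9% as higher and 26.3% as lower.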

How the results depend on the processing

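ASNS kept its direction and its call in all comparisons and alternatives run, with log2 fold changes of -0.59 to -0.51 in experiment 1 and 1.53 to 1.60 in experiment 2. In experiment 1, 2 to 4 of the genes were called, all lower, when 1 library was left out, and 1581 to 5231 of all genes were. The low ends came without induced library 1 (1581), induced library 3 (1678) or uninduced library 2 (2104), against 3971 with all libraries, and the 4 calls came without uninduced library 2. Replicate numbers are shared by label only: same-numbered libraries correlated at 0.19, -0.11 and 0.019 in experiment 1 and 0.0048, 0.030 and -0.016 in experiment 2, so they were not taken as pairs. With the replicate number as a block, 2327 genes were called in experiment 1, and the block left the calls among the 10 genes as they were except for SLC7A11 in experiment 2, which was called (adjusted p = 0.0456). Among the lists of experiment 1, the block took the mTORC1 genes to 4 higher and the cystine and glutathione genes to 1 higher and 2 lower. The sign turned for SLC3A2 in experiment 1 without uninduced library 1 (0.013), for SLC7A1 in experiment 1 without uninduced library 3 (0.024) and for SLC7A11 between the induced groups with library totals (0.12). Left-out libraries gave -0.15 to 0.024 for SLC7A1 and -0.13 to 0.013 for SLC3A2 there. The cause was not tested. Depth limits the circRNA results, where 1 to 84 reads stand behind a circle of these genes.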

Other observations

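SLC7A3, the cationic transporter CAT3, fell under the level set for naming in experiment 2 and was looked at after its values were seen. It had 0, 1 and 2 reads in the parental libraries and 148, 136 and 157 reads in the induced ones, or 3.94, 3.58 and 4.18 CPM. In experiment 1 the uninduced libraries held 679, 645 and 386 reads and the induced ones 398, 319 and 359. The gene was thus near 0 in parental cells and present in every library of the inducible line.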
